A study of Rattus norvegicus with 145 samples.

Results

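The female rats of day 29 at 0, 300, 500 and 750 mkd (mg/kg/day) are 20 of the 145 rats of the series. They were taken by dose and day as the labels of the columns give them, with 5 rats in each of the 4 groups. All were Wistar rats of the Crl:WI stock, 8 to 10 weeks old. They were gavaged once a day for 28 days with water, the vehicle, or with acetamide in water. The left liver lobe was collected on day 29, and its RNA was sequenced. Acetamide, the amide of acetic acid, causes liver tumors in rats at high oral doses, and the study asked how it acts on the liver and from which dose gene expression responds. Females were also dosed at 1000 and 1500 mkd, and the study holds males and an earlier time-point, day 8.

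The adult liver is made mostly of hepatocytes, which seldom divide. When they do, genes of DNA replication (S phase) are transcribed before the genes of spindle assembly and chromosome segregation (G2 and M phase), so mRNA of both groups serves as a measure of cell cycling in whole tissue. Stellate cells, the pericytes of the liver, and portal fibroblasts carry the receptors for platelet-derived growth factor (PDGF) and make most of the collagen and proteoglycan of the organ. Hepatocytes also make the cholesterol and fatty acids of the liver, under the SREBP transcription factors.

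The 17337 genes of the table held 22211299 to 34299717 reads in a rat, with a median of 28250084.5. The median was 31217726 in the vehicle group, 29061197 at 300, 27059912 at 500 and 25254968 at 750 mkd. Reads that were assigned to no gene made up 35.5 to 41.4% in the vehicle rats and 39.4 to 43.3% in the rats at 750 mkd. Expression is given as CPM, the reads of a gene as a share of the reads of its library, scaled by the TMM factor of the library, which lay between 0.735 and 1.11 and was lowest in vehicle replicates 4 and 5. All 12 hepatocyte markers of the list used here were counted in these livers. There were 0 pairs of identical columns. The library of 300 mkd replicate 3 holds transcripts typical of males, as described at the end. The numbers of genes called at 300 mkd and in the trend are given with and without it. List medians that use the 300 mkd group include it unless stated. Among the rats of 300 mkd, replicate 2 stood apart by high levels of cell cycle mRNA.

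Each dose was set against the vehicle with edgeR (quasi-likelihood) over the 11451 genes left after its filter on low counts. Genes were called where they changed 1.5-fold or more and their p, adjusted by Benjamini-Hochberg in that comparison, did not exceed 0.05. Adjusted p are from edgeR unless DESeq2 is named. At 300 mkd, edgeR called 0 genes (0% of those tested) and DESeq2 called 0. An unadjusted p under 0.05 was found for 400 genes (3.49%) by edgeR and for 438 by DESeq2. At 500 mkd 4 genes were called (0.0349%), all higher. At 750 mkd 21 genes were called (0.183%), 19 of them higher (0.166%) and 2 lower (0.0175%). The trend, a slope of log2 expression on dose over the 20 rats, called 176 of 11229 genes (1.57%), 113 rising (1.01%) and 63 falling (0.561%). DESeq2 called more than edgeR, 62 genes at 500 mkd, 152 at 750 mkd and 465 in the trend, and all 21 genes called by edgeR at 750 mkd were among the 152. Without the condition on fold, 5 genes passed at 500 mkd (0.0437%), 24 at 750 mkd (0.21%) and 228 in the trend (2.03%). The study also used relaxed criteria, a fold change of 1.4 and an adjusted p of 0.1, for genes already called in any sex or time-point. Here they were applied to all genes tested. At 300 mkd 0 genes passed. At 500 mkd 39 passed (0.341%), of them 34 higher (0.297%), and at 750 mkd 116 (1.01%), of them 86 higher (0.751%). The trend then passed 555 genes (4.94%), 308 of them rising (2.74%).

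The 19 genes that rose at 750 mkd did so by 0.75 to 2.87 on the log2 scale. Every rat at 750 mkd lay above every vehicle rat for all 19, which held for 1.72% of all genes tested. The 19 were called on these same rats, so the share of all genes is no fair comparison. The median log2 fold change of the 19 was 0.48 at 300, 1.01 at 500 and 1.65 at 750 mkd, in comparisons that share the vehicle rats. The genes were chosen at 750 mkd, which tends to raise the median at that dose. Of the 19, 7 belonged to the lists of S, G2 and M phase genes. The mean vehicle level was under 1 CPM for 9 of them.

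Tacc3, a protein that stabilizes spindle microtubules, was at 6.18, 6.98, 7.21, 5.99 and 5.60 CPM in the vehicle rats. At 300 mkd it was at 5.74, 11.6, 7.59, 4.48 and 6.95 CPM. The rats at 500 mkd had 9.55, 8.71, 13.7, 13.1 and 10.6 CPM and those at 750 mkd 11.0, 15.5, 14.0, 15.0 and 10.8 CPM. All 10 rats of the higher pair of doses lay above all vehicle rats, while at 300 mkd replicate 2 alone was far above them. The log2 fold change at 750 mkd was 1.05 ± 0.20 (SE), with an adjusted p of 0.0261. At 500 mkd it was 0.80 ± 0.20, with an adjusted p of 0.0951, past the fold but not the p of a call.

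Cdc20, the activator of the anaphase-promoting complex, was at 1.94 to 2.79 CPM in the vehicle rats. It was at 2.05, 6.86, 2.71, 2.26 and 2.94 CPM at 300 mkd and at 3.68, 3.22, 6.97, 8.6 and 5.93 CPM at 500 mkd. The rats at 750 mkd had 5.54, 12.1, 5.60, 8.29 and 6.70 CPM. The vehicle mean was 2.43 ± 0.343 CPM (SD, n = 5). All rats at 500 and 750 mkd were above all vehicle rats, and the highest was replicate 2 of 750 mkd. The log2 fold change at 750 mkd was 1.65 ± 0.34, with an adjusted p of 0.042.

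The other genes of mitosis that rose at 750 mkd code for kinases, motors and kinetochore proteins. Aurka, a kinase of the centrosome and spindle, rose from 5.02 ± 1.37 to 8.88 ± 1.10 CPM (log2 fold change 0.82). Kifc1, a kinesin that bundles spindle microtubules, rose from 1.13 ± 0.267 to 3.88 ± 1.33 CPM (1.78). Nuf2, a subunit of the NDC80 complex that binds microtubules to the kinetochore, rose from 0.475 ± 0.156 to 1.66 ± 0.886 CPM (1.8). Ckap2, a spindle-associated protein, had a log2 fold change of 2.35, and Kif18b, another kinesin, of 1.97. Kntc1, part of the checkpoint machinery of the kinetochore, rose by 2.15, and Sgol2, which protects the cohesion of centromeres, by 2.87 from counts of 0 to 4 in the vehicle rats. Adjusted p of these 7 genes lay at or under 0.0467.

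Cdkn2c, Pkmyt1, Cdkn3 and Dscc1 rose as well. Cdkn2c, an inhibitor of the cyclin D kinases, was at 0.680 to 1.22 CPM in the vehicle rats and at 1.44, 2.83, 2.35, 2.96 and 2.33 CPM at 750 mkd, with a log2 fold change of 1.38 ± 0.26 and an adjusted p of 0.0261. Pkmyt1, the kinase that holds Cdk1 inactive before mitosis, rose from 1.84 ± 0.695 to 6.06 ± 2.04 CPM (1.72). Cdkn3, a phosphatase of cyclin-dependent kinases, rose from 0.416 ± 0.143 to 1.68 ± 0.412 CPM (2.01). Cdkn1b, another inhibitor of these kinases, had a log2 fold change of 0.08 (adjusted p 0.87), and Cdkn1a, the inhibitor p21, of 0.41 (adjusted p 0.74). Dscc1, which loads the replication clamp and serves the cohesion of sister chromatids, rose from 0.509 ± 0.188 to 1.70 ± 0.725 CPM (1.73).

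Mki67, which codes for the proliferation marker Ki67, was at 4.28, 4.46, 5.20, 4.24 and 6.08 CPM in the vehicle rats. The rats at 750 mkd had 7.19, 22.8, 8.40, 15.6 and 12.2 CPM, all above the vehicle rats. Its log2 fold change of 1.45 ± 0.34 came with an adjusted p of 0.0589 at 750 mkd, so it was not called there, while DESeq2 gave 0.00493. Over 19 alternative fits the adjusted p of Mki67 at 750 mkd ranged from 0.00493 to 0.16. In the trend it was called, with a slope of 1.51 ± 0.31 log2 units over 0 to 750 mkd and an adjusted p of 0.0265.

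**Figure D1:**
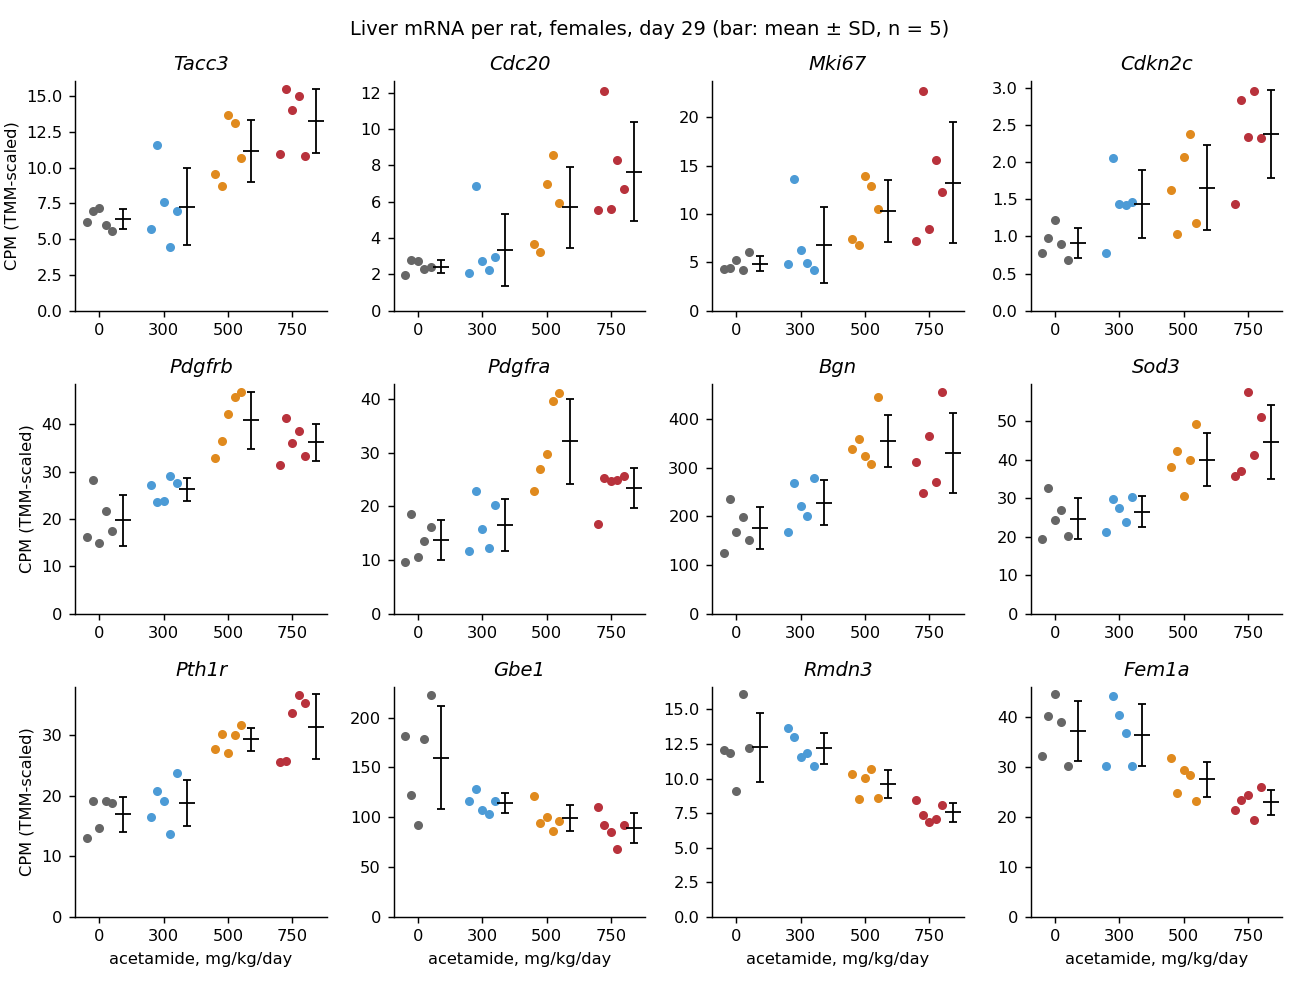
Expression of 12 genes in each rat, as TMM-scaled CPM on the vertical axis against the dose in mg/kg/day, with 1 point per rat and the mean ± SD of the 5 rats beside them. For Tacc3, Cdc20, Mki67, Cdkn2c, Pdgfrb, Bgn, Sod3 and Pth1r every rat at 750 mkd lies above every vehicle rat, and for Rmdn3 and Fem1a below.

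The promoters of genes of G2 and M phase are known for a CHR element and for CCAAT boxes, which bind the DREAM complex and NF-Y. They are shown for 3 genes that were called at 750 mkd, with the letters TTTGAA (CHR) and CCAAT in capitals on either strand, from 250 bases before to 50 bases after the start of the gene in RefSeq's annotation of GRCr8. Cdc20 lies at chr5:137255750-137256049 on the minus strand, Tacc3 at chr14:81289649-81289948 on the minus strand and Kifc1 at chr20:5000679-5000978 on the plus strand.
Cdc20: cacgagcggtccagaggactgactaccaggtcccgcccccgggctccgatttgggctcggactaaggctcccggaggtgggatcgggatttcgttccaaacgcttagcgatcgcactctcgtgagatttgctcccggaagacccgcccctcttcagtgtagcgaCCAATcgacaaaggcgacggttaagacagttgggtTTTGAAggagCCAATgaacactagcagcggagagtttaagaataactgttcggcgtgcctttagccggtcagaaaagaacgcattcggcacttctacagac
Tacc3: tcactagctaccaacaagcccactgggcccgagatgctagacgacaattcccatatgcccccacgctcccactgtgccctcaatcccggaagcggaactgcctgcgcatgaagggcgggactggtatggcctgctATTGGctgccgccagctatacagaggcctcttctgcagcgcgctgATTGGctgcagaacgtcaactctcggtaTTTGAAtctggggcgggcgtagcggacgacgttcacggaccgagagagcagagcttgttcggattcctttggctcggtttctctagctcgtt
Kifc1: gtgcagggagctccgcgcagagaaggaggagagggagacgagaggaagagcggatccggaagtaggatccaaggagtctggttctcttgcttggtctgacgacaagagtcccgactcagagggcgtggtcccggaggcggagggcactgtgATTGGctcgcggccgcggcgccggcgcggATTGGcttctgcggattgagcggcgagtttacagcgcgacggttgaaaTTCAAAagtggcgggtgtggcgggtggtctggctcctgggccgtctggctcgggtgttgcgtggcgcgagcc
Each of the 3 holds TTTGAA and CCAAT, while the promoters of Kif18b, Cdkn2c, Shc2 and Pth1r, also called at 750 mkd, hold neither. The stretch at the annotated start of Aurka holds neither as well, but whether it is the promoter in use was not tested. Searched on both strands, TTTGAA was found in 35 of the 54 promoters matched to the G2 and M phase list (64.8%) and in 5 of 36 of the S phase list (13.9%), against 18.1% of all 27457 promoters of the same length and 11.7% of those of tested genes. CCAAT was found in 75.9% of the promoters of the G2 and M phase list and in 58.3% of the S phase list, against 37.7% of all promoters. Of the 13 genes higher at 750 mkd with a promoter in the table, 7 held TTTGAA (53.8%) and 7 held CCAAT. A match of letters is a description and not a shown binding site.

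Of the 54 tested genes of the G2 and M phase list, 6 were called at 750 mkd, all higher, and 43 had an unadjusted p under 0.05 in that direction, against 7.2% of all genes. The median log2 fold change of the list was 0.39 at 300, 0.79 at 500 and 1.25 at 750 mkd, beside -0.00, -0.01 and 0.00 for all genes. In 28 of the 54 every rat at 750 mkd lay above every vehicle rat, against 1.72% of all genes tested. The trend called 23 of the 54, all rising, and 43 had a positive slope with an unadjusted p under 0.05, against 10.1% of all genes. DESeq2 called 30 of the 54 at 750 mkd. Cdk1, the kinase that drives entry into mitosis, was among those past the fold but not the p, at 1.07 ± 0.459 CPM in the vehicle group and 4.56 ± 1.57 CPM at 750 mkd (log2 fold change 2.10, adjusted p 0.0511). Top2a, the topoisomerase that untangles chromosomes, had a log2 fold change of 1.52 (adjusted p 0.118), and Foxm1, a transcription factor of mitotic genes, 0.76 (adjusted p 0.094). Without 750 mkd replicate 2 the median of the list at 750 mkd was 0.96.

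The S phase list had a median log2 fold change of 0.15 at 300, 0.08 at 500 and 0.56 at 750 mkd over 42 tested genes. At 750 mkd 1 of them, Dscc1, was called. Of the 42, 23 had an unadjusted p under 0.05 and were higher, against 7.2% of all genes. Those lower at that p numbered 0, against 8.4% of all genes. Exo1, a nuclease of DNA repair, had counts of 1 to 5 in the vehicle rats and of 9, 35, 17, 17 and 8 at 750 mkd (log2 fold change 2.52, adjusted p 0.0511). The mean log2 CPM of the S phase list was 1.42 to 1.60 in the vehicle rats and 1.8 to 2.72 at 750 mkd, so that the groups did not overlap. At 500 mkd it was 1.52 to 1.90, and 3 of 5 rats were above the vehicle rats. The mean log2 CPM of the G2 and M phase list was 0.754 to 1.10 in the vehicle rats, 1.16 to 2.19 at 500 mkd and 1.57 to 2.62 at 750 mkd. For this list all rats of both doses were above all vehicle rats by this mean. By summed CPM the groups overlapped in both lists. The S phase list summed to 318 to 357.5 CPM in the vehicle rats and 315 to 478 at 750 mkd, with 2 of 5 rats above. The G2 and M phase list summed to 287 to 465 CPM in the vehicle rats. It summed to 418 to 595 CPM at 500 mkd, with 2 of 5 above, and 379 to 596 CPM at 750 mkd, with 4 of 5 above.

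At 300 mkd the mean log2 CPM of the S phase list was 1.51, 2.29, 1.68, 1.24 and 1.71, so that 3 of 5 rats were above all vehicle rats. That of the G2 and M phase list was 0.761, 2.09, 1.28, 0.654 and 0.986, with 2 of 5 above. In both lists replicate 2 was by far the highest. It had 13.6 CPM of Mki67, 6.86 of Cdc20 and 7.92 of Top2a, while the other 4 rats of the group had 4.21 to 6.23, 2.05 to 2.94 and 1.47 to 3.82 CPM. Without that rat the median log2 fold change of the G2 and M phase list at 300 mkd was 0.01 in place of 0.39. That of the S phase list was 0.01 in place of 0.15.

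**Figure D2:**
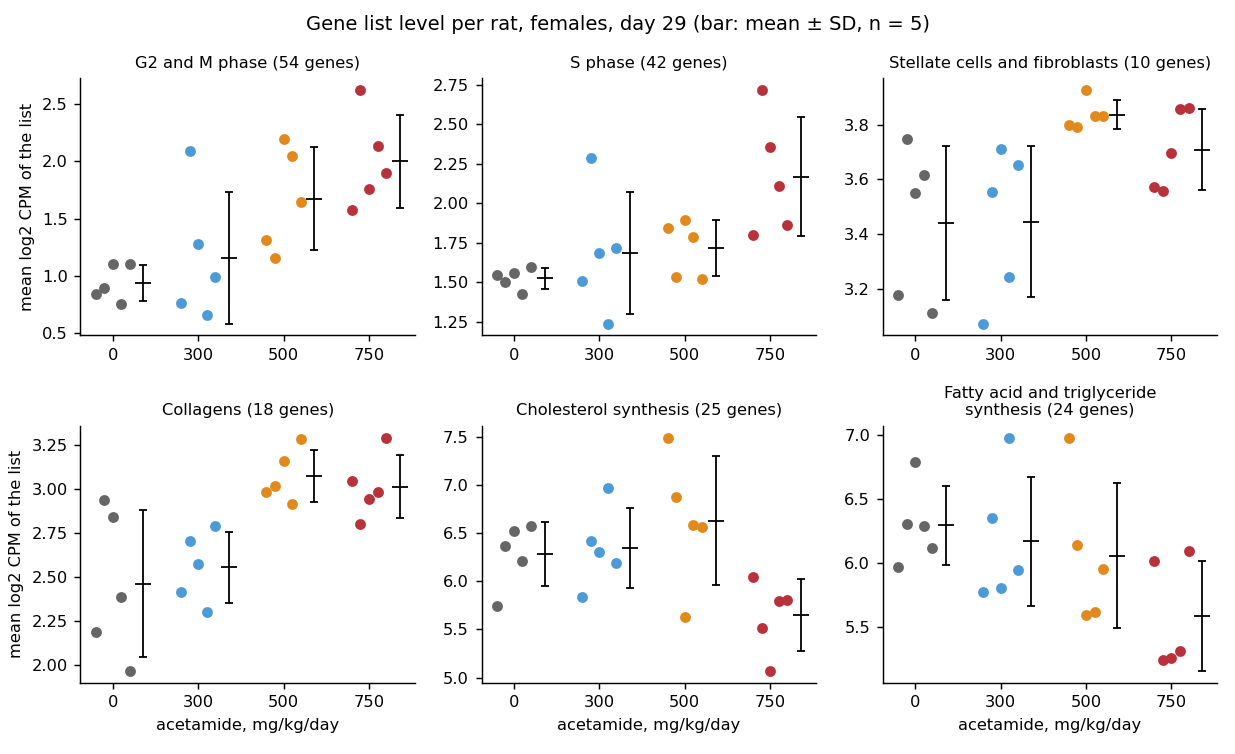
Level of 6 gene lists in each rat, as the mean log2 CPM of the tested members (vertical axis) against the dose in mg/kg/day, with 1 point per rat and the mean ± SD of 5 rats. The G2 and M phase list lies above all vehicle rats in every rat at 500 and 750 mkd, and the lowest cholesterol synthesis levels are at 750 mkd.

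At 500 mkd the 4 genes called were Pdgfrb, Pdgfra, Tril and Bgn. Every rat at that dose lay above every vehicle rat for all 4, which held for 1.14% of all genes. These 4 too were called on the same rats, so that share is no fair comparison. Pdgfrb, the PDGF receptor beta that marks stellate cells and other pericytes, was at 16.1, 28.3, 15.0, 21.7 and 17.6 CPM in the vehicle rats. At 300 mkd it was at 27.3, 23.7, 23.7, 29.2 and 27.6 CPM. It was at 32.8, 36.4, 42.3, 45.8 and 46.8 CPM at 500 mkd and at 31.4, 41.2, 36.1, 38.7 and 33.4 CPM at 750 mkd. The vehicle rats and those at 300 mkd overlapped, and both higher doses lay above all vehicle rats. The log2 fold change was 1.05 ± 0.16 at 500 mkd (adjusted p 0.00764) and 0.87 ± 0.16 at 750 mkd (adjusted p 0.0261).

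Pdgfra, the alpha receptor of the same ligands, was at 9.68, 18.5, 10.6, 13.6 and 16.1 CPM in the vehicle rats and at 22.9, 27.0, 29.7, 39.5 and 41.2 CPM at 500 mkd. Its log2 fold change was 1.23 ± 0.22 (adjusted p 0.0263). At 750 mkd it was at 16.7, 25.3, 24.7, 24.8 and 25.6 CPM, with replicate 1 within the range of the vehicle rats, a log2 fold change of 0.77 ± 0.22 and an adjusted p of 0.108. Bgn, the small proteoglycan biglycan, was at 176 ± 43.2 CPM in the vehicle group, 227 ± 46.2 at 300, 354 ± 54.0 at 500 and 330 ± 82.5 at 750 mkd. It was called at 500 mkd (1.01 ± 0.20, adjusted p 0.0466) and at 750 mkd (0.91 ± 0.20, adjusted p 0.0467). Tril, which binds Toll-like receptor 4 at the cell surface, rose from 1.00 ± 0.223 to 2.34 ± 0.656 CPM at 500 mkd (1.22 ± 0.21, adjusted p 0.0168).

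The contrast between 750 and 500 mkd called 0 of 11451 genes by edgeR (327 at an unadjusted p under 0.05, 2.86%) and 1 by DESeq2, so no gene of the 4 was shown to differ between those doses by edgeR. The call at 500 mkd depended on single rats. Without vehicle replicate 1, 2, 3, 4 or 5 the number of genes called at 500 mkd was 1, 36, 22, 2 and 0, and without replicate 1, 2, 3, 4 or 5 of 500 mkd 3, 2, 4, 1 and 2. Over 19 alternative fits Pdgfrb was called in 17, Tril in 13, Pdgfra in 12 and Bgn in 8.

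Outside the cell cycle and the genes called at 500 mkd, Sod3, Pth1r, Arvcf and Shc2 rose at 750 mkd. Sod3, the extracellular superoxide dismutase, was at 19.5, 32.5, 24.3, 26.8 and 20.3 CPM in the vehicle rats and at 35.8, 37.1, 57.7, 41.2 and 51.2 CPM at 750 mkd. Pth1r, the receptor of parathyroid hormone, was at 13.0, 19.1, 14.6, 19.0 and 18.7 CPM in the vehicle rats and at 25.6, 25.7, 33.7, 36.6 and 35.3 CPM at 750 mkd. In both genes the groups did not overlap. The log2 fold change was 0.85 ± 0.17 for Sod3 (adjusted p 0.0321) and 0.89 ± 0.18 for Pth1r (adjusted p 0.0331). Arvcf, a catenin that binds cadherins, rose from 40.5 ± 10.7 to 68.0 ± 6.49 CPM (0.75), and Shc2, an adaptor of receptor tyrosine kinases, from 0.774 ± 0.212 to 1.46 ± 0.253 CPM (0.91).

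Collagens did not pass the threshold in any of the dose comparisons by edgeR. Of 18 collagen genes tested, a list added after the calls at 500 mkd had been seen, 0 were called at any dose, while DESeq2 called 3 at 500 mkd, all higher. Those with an unadjusted p under 0.05 numbered 0 at 300, 8 at 500 and 8 at 750 mkd, all higher. Of all genes, 6.17% were higher at that p at 500 mkd and 7.2% at 750 mkd. The median log2 fold change of the 18 collagens was -0.06 at 300, 0.57 at 500 and 0.45 at 750 mkd. Col3a1, a fibrillar collagen, was at 173 ± 59.3 CPM in the vehicle group and 343 ± 55.3 CPM at 500 mkd (0.99, adjusted p 0.0795). Col5a1, which nucleates collagen fibrils, was at 19.5 ± 8.31 and 39.6 ± 6.63 CPM (1.02, adjusted p 0.0545). Col1a1, the main fibrillar collagen of scar tissue, was at 7.13 ± 3.28 and 8.67 ± 1.98 CPM (log2 fold change 0.28), and Acta2, the smooth muscle actin of activated stellate cells, at 3.73 ± 1.19 and 2.21 ± 0.412 CPM (-0.75, adjusted p 0.36). Col1a2 had 0 counts in 19 of the 20 rats, so it gives no check of these cells.

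The marker list of stellate cells and fibroblasts, which holds Pdgfrb, Col3a1, Col1a1 and Acta2, had a summed level of 190 to 401 CPM in the vehicle rats, 244 to 390 at 300, 466 to 658 at 500 and 385 to 538 at 750 mkd. All rats at 500 mkd and 3 of 5 at 750 mkd were above the vehicle rats. Of its 10 tested members 1, Pdgfrb, was called at 500 mkd and at 750 mkd, and the median log2 fold change was -0.00 at 300, 0.45 at 500 and 0.14 at 750 mkd. Lrat, which makes the retinyl esters that stellate cells store, was at 20.6 ± 6.26 CPM in the vehicle group and 35.3 ± 12.6 at 500 mkd (0.78, adjusted p 0.208). In whole liver, more cells of a type and more RNA per cell cannot be told apart.

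Markers of the other non-parenchymal cells held no called gene. The macrophage list summed to 1219 to 1471 CPM in the vehicle rats, 756 to 2392 at 300, 1208 to 1818 at 500 and 1018 to 1880 at 750 mkd. The endothelial list summed to 113 to 372 CPM in the vehicle rats and 225 to 283 CPM at 750 mkd. In both lists and those of cholangiocytes, neutrophils, erythroid cells and lymphocytes (T, NK and B cells), edgeR and DESeq2 called 0 genes at 500 and 750 mkd, and the unadjusted p was under 0.05 for 1 gene at each dose. The part of cell composition in the calls was not tested.

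Gbe1 and Rmdn3 fell at 750 mkd. Gbe1, the glycogen branching enzyme, was at 181, 123, 92.4, 179 and 223 CPM in the vehicle rats and at 110, 91.8, 84.7, 67.9 and 92.5 CPM at 750 mkd. The groups overlapped through vehicle replicate 3, and 3 of 5 treated rats were below all vehicle rats (log2 fold change -0.84 ± 0.18, adjusted p 0.0467). Rmdn3, which tethers mitochondria to the endoplasmic reticulum, was at 12.1, 11.8, 9.13, 16.1 and 12.2 CPM in the vehicle rats and at 8.45, 7.35, 6.83, 7.11 and 8.10 CPM at 750 mkd. All 5 were below all vehicle rats, which held for 0.716% of genes tested (-0.70 ± 0.15, adjusted p 0.0467). Rmdn3 was called on these same rats.

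The calls at 750 mkd depended on which rat was in the fit. Without vehicle replicate 1, 2, 3, 4 or 5 the number of genes called was 0, 31, 269, 0 and 0, and without replicate 1, 2, 3, 4 or 5 of 750 mkd it was 37, 0, 1, 0 and 4. In the 5 fits with 0 calls by edgeR, 1253 to 2057 genes had an unadjusted p under 0.05 and the smallest adjusted p lay between 0.0591 and 0.131. The sign of all 21 genes was the same in all 10 fits. Over these and the other alternatives, Tacc3 was called in 12 of 19, Cdc20 in 11 of 19 and Aurka in 5 of 19.

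**Figure D3:**
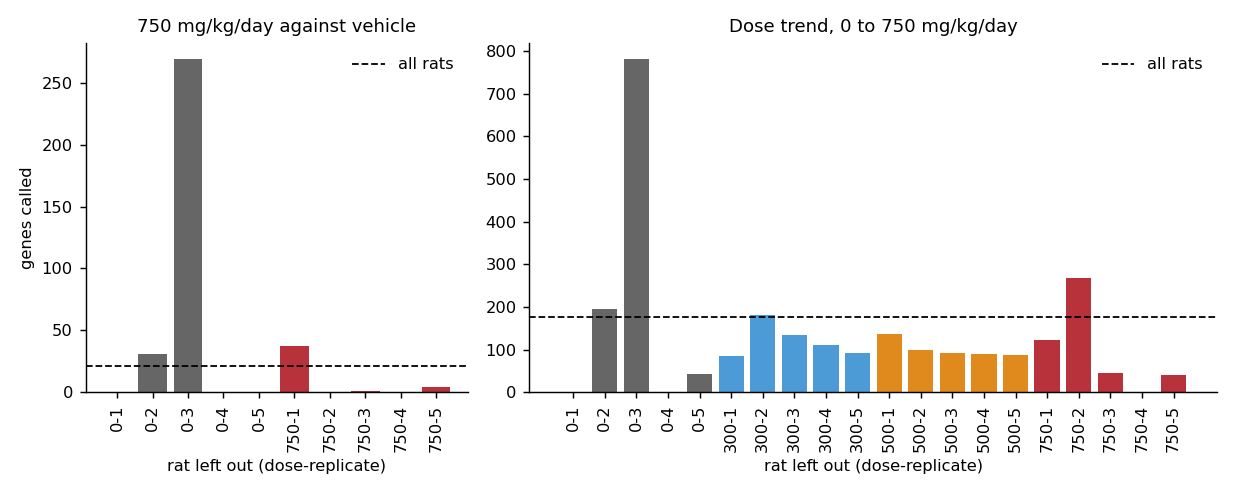
Number of genes called (vertical axis) when 1 rat is left out, at 750 mkd against the vehicle (left) and in the trend over 0 to 750 mkd (right), with 1 bar per rat named by dose and replicate and a dashed line for the fit with all rats. Leaving out vehicle replicate 3 gives 269 and 781 genes, while leaving out vehicle replicate 1 gives 0 in both.

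In the trend, 81 of the 176 called genes had group means that rose at every step of dose and 44 had means that fell at every step. The share of all genes with such means was not counted. The 176 were called by their slope over the same rats, so these counts follow in part from the call. Members of the cell cycle lists made up 29 of the 113 rising genes. The S phase list held 40 and the G2 and M phase list 54 of the 11229 genes tested in the trend. All 21 genes called at 750 mkd were called in the trend, which shares the same rats. Pth1r had the smallest adjusted p among the called rising genes (slope 1.00 ± 0.16, adjusted p 0.0139), followed by Tacc3 (1.14 ± 0.20, adjusted p 0.0218) and Cdc20 (1.74 ± 0.31, adjusted p 0.0218). Without vehicle replicate 1, 2, 3, 4 or 5 the trend called 0, 195, 781, 1 and 42 genes. The range was 86 to 182 genes without a rat of 300 mkd, with 134 without replicate 3, and 87 to 136 without a rat of 500 mkd, and the calls were 122, 268, 44, 0 and 41 without replicate 1, 2, 3, 4 or 5 of 750 mkd. With the vehicle group left out, the trend over 300 to 750 mkd called 1 gene.

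Of the 63 genes that fell with dose, those with the smallest adjusted p are given. The marker list of hepatocytes had a median log2 fold change of -0.10 at 300, -0.26 at 500 and -0.18 at 750 mkd. In the trend 1 of its 12 genes, Cps1, was called, falling, and 4 had an unadjusted p under 0.05 with a negative slope, against 10.8% of all genes. Fem1a, a substrate receptor of a ubiquitin ligase, was at 32.3, 40.2, 44.8, 39.1 and 30.2 CPM in the vehicle rats and at 21.5, 23.5, 24.4, 19.3 and 26.0 CPM at 750 mkd, with no overlap. Its slope was -0.74 ± 0.14 (adjusted p 0.0223), and it had the smallest p of the called falling genes. Ctnnb1, beta-catenin of the Wnt pathway and of cell junctions, was at 175 ± 34.1 CPM in the vehicle group, 160 ± 11.7 at 300, 135 ± 13.7 at 500 and 113 ± 17.3 at 750 mkd (slope -0.63, adjusted p 0.0227). Nptx2, a secreted pentraxin, was at 18.3 ± 6.80, 14.8 ± 4.77, 9.03 ± 3.9 and 6.13 ± 2.99 CPM (slope -1.63, adjusted p 0.0233).

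Hspa9, the mitochondrial chaperone of the Hsp70 family, was at 158 ± 44.6 CPM in the vehicle group and 86.3 ± 17.7 at 750 mkd (slope -0.94, adjusted p 0.0276). Cps1, the enzyme of the urea cycle that fixes ammonia, was at 2616 ± 825 and 1327 ± 323 CPM (slope -1.02, adjusted p 0.0281). Ttpa, the transfer protein of vitamin E, was at 95.5 CPM in vehicle replicate 3 and at 206 to 539 CPM in the other 4, against 107 to 157 CPM at 750 mkd (slope -1.33, adjusted p 0.0273). In that gene the groups overlapped through vehicle replicate 3 alone. Acss3, an acyl-CoA synthetase of mitochondria (-1.09), Enpep, glutamyl aminopeptidase (-0.62), and Gnb5, a G protein beta subunit (-0.72), fell too. Ctnnb1 was called in 23 of 30 alternative fits of the trend, Fem1a in 25, Nptx2 in 26, Ttpa in 24, and Hspa9 and Cps1 in 22.

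Cholesterol synthesis showed no steady course over dose. Of its 25 tested genes, 19 had a positive log2 fold change at 500 mkd and 0 had one at 750 mkd, with a median of 0.08 at 300, 0.44 at 500 and -0.65 at 750 mkd. No gene of the list was called by edgeR at any dose, and 11 had an unadjusted p under 0.05 at 750 mkd, all lower, against 8.4% of all genes. DESeq2 called 1, lower. The rats differed widely within a dose: the mean log2 CPM of the list was 5.75 to 6.58 in the vehicle rats, 5.63 to 7.50 at 500 mkd and 5.07 to 6.05 at 750 mkd.

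The list of fatty acid and triglyceride synthesis had a median log2 fold change of -0.04, -0.24 and -0.53 at 300, 500 and 750 mkd over 24 genes. At 750 mkd 0 were called by edgeR and 3 by DESeq2, all lower. An unadjusted p under 0.05 was found for 9, all lower, against 8.4% of all genes. Acaca, the acetyl-CoA carboxylase of fatty acid synthesis, was at 34.6, 40.8, 65.5, 34.0 and 32.5 CPM in the vehicle rats and at 25.7, 18.1, 21.5, 14.7 and 26.9 CPM at 750 mkd (-0.96 ± 0.26, adjusted p 0.0962). The groups did not overlap. Acly, which makes cytosolic acetyl-CoA, had 1049.8 CPM in vehicle replicate 3 and 109 to 150 CPM in the other 4, so that its log2 fold change of -1.58 at 750 mkd rested largely on that rat.

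Against 300 mkd, 750 mkd called 0 genes by edgeR (1680 at an unadjusted p under 0.05, 14.7%) and 80 by DESeq2. This difference does not use the vehicle rats, which still entered the scaling and the estimate of spread of the fit. The median log2 difference was 0.85 for the G2 and M phase list, 0.44 for the S phase list, -0.79 for cholesterol synthesis and -0.52 for fatty acid and triglyceride synthesis. Of the 54 genes of the G2 and M phase list, 33 had an unadjusted p under 0.05 and were higher, against 6.08% of all genes. For cholesterol synthesis 10 of 25 had one and were lower, against 8.59%.

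**Figure D4:**
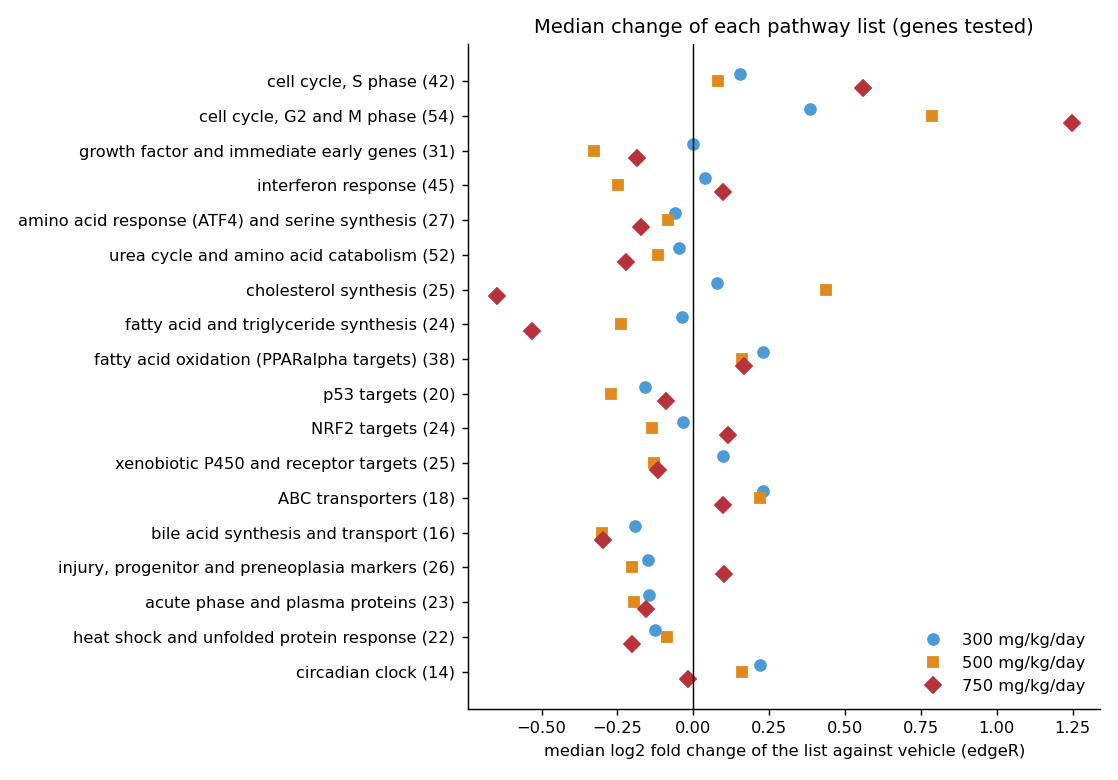
Median log2 fold change against the vehicle of each pathway list (horizontal axis) at 300, 500 and 750 mg/kg/day, with the number of genes tested in parentheses. The G2 and M phase list has the highest medians at each dose, and cholesterol synthesis has medians of opposite sign at 500 and 750 mg/kg/day.

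The other pathway lists had 0 genes called by edgeR at 300, 500 or 750 mkd and medians between -0.33 and 0.23. At 500 mkd DESeq2 called 1 gene higher in the growth factor and PPARα lists each, and 1 lower in the p53 and acute phase lists each. At 750 mkd it called 1 higher in the PPARα list and 1 lower each in the urea cycle, xenobiotic and heat shock lists. In the trend edgeR called 2 growth factor and 2 urea cycle genes, all falling. It also called 1 gene of the xenobiotic list, falling, and 1 ABC transporter, rising. Urea cycle and amino acid catabolism, with 52 genes, had a median of -0.22 at 750 mkd. An unadjusted p under 0.05 was found for 7 lower genes and 1 higher, against 8.4% and 7.2% of all genes. Targets of PPARα, the receptor that drives fatty acid oxidation, had a median of 0.23, 0.16 and 0.17 over 38 genes. At 750 mkd 6 of them were higher at an unadjusted p under 0.05, against 7.2% of all genes. Cpt1b, a carnitine palmitoyltransferase, was at 2.71 ± 0.581 CPM in the vehicle group and 4.58 ± 0.997 CPM at 750 mkd (0.76, adjusted p 0.0986). Targets of p53 and NRF2, stress regulators of DNA damage and oxidation, had medians of -0.09 and 0.11 at 750 mkd. Nqo1, an oxidoreductase under NRF2, had 94.9 CPM in vehicle replicate 1 and 8.97 to 26.9 CPM in the other 4, against 12.9 to 20.5 CPM at 750 mkd. Gstp1, a marker of preneoplastic rat hepatocytes, was at 8.29 ± 2.66 and 12.3 ± 1.05 CPM (0.57, adjusted p 0.191).

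The members of the other lists with the smallest p at 750 mkd were not called there by edgeR. Cps1 and Abcb1b, described elsewhere, were called in the trend. Among the members given here, Slc25a15 and Ugt1a1 alone were. Igfbp3, a carrier of insulin-like growth factors, was at 63.0 ± 5.92 CPM in the vehicle group and 105 ± 23.4 at 750 mkd, with all 5 rats above all vehicle rats (0.74, adjusted p 0.122). Ccnd1, cyclin D1, had a log2 fold change of 0.73, Slfn2 and Slfn3, Schlafen genes of the interferon list, 0.52 and 0.69, and Acaa1b, a thiolase of peroxisomal fatty acid oxidation, 0.73. Gpt2, a transaminase of alanine, was at 71.1 ± 11.6 and 37.8 ± 11.8 CPM (-0.91, adjusted p 0.186), without overlap. Slc25a15, the mitochondrial ornithine carrier of the urea cycle, had a slope of -1.01 in the trend (adjusted p 0.0409), and Ugt1a1, which conjugates bilirubin, of -1.16 (adjusted p 0.0348). The p53 targets Sesn1 and Aen had -0.48 and -0.37 at 750 mkd. The transporters Abcc5 and Slco1a1 and the bile acid CoA ligase Slc27a5 had 0.66, -0.88 and -0.45. Anxa5, an annexin of the injury list, had 0.47, the acute phase genes Serpina3n and Crp had -0.52 and -0.65, and the chaperone genes Pdia4 and Hsp90ab1 -0.62 and -0.31. The adjusted p of these 18 genes at 750 mkd lay between 0.112 and 0.287.

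The clock genes, read here since expression in the liver cycles over the day, had 0 genes with an unadjusted p under 0.05 at 300, 500 or 750 mkd, but single rats differed widely: Dbp, an output gene of the clock, ranged from 20.1 to 137 CPM in the vehicle rats and from 7.19 to 297 CPM at 500 mkd.

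Ifit1, an antiviral protein induced by interferon, was at 0 to 0.200 CPM in the vehicle rats, at 24.4 CPM in replicate 5 of 300 mkd, at 29.1 and 6.84 CPM in replicates 2 and 4 of 500 mkd and at 14.3 and 28.8 CPM in replicates 3 and 4 of 750 mkd. The other rats of these doses had at most 0.212 CPM. Ifit1 was thus high in 5 of the 15 treated rats. The interferon list as a whole was not, with a mean log2 CPM of 4.12 to 5.06 in the vehicle rats and of 4.77, 5.06, 4.12, 4.91 and 5.09 in those 5 rats. Its median log2 fold change was 0.04, -0.25 and 0.10 at 300, 500 and 750 mkd over 45 genes. Abcb1b, a multidrug efflux pump, was at 11.6, 5.41, 4.65, 3.22 and 6.88 CPM in the vehicle rats and at 13.7, 36.6, 10.2, 26.4 and 18.2 CPM at 750 mkd (1.73 ± 0.51, adjusted p 0.117), and it was called in the trend (slope 1.73, adjusted p 0.0409), in 14 of 30 alternative fits. Its groups overlapped through replicate 3 of 750 mkd. Acot1, an acyl-CoA thioesterase, ranged from 0.156 to 9.51 CPM in the vehicle rats and from 0.526 to 63.3 CPM at 500 mkd, and was not called at 300, 500 or 750 mkd by edgeR or DESeq2. Cyp17a1, Slc7a1, Prom1, Akr1b8, Rnd1, Tes and Car3, which the study names, and Adgrg2 were not called by edgeR or DESeq2 at 300, 500 or 750 mkd either.

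The sexes and days were compared at 750 mkd by interaction tests with the males of day 29 and the females of day 8, against the vehicle rats of the same sex and day. The labels put the vehicle males of day 29 in another exposure experiment than the treated males, while their titles give the same days of dosing, so that the values set against these males rest on the titles. The response differed between females and males of day 29 for 0 of 11263 genes by edgeR (535 at an unadjusted p under 0.05) and for 1 by DESeq2, and between day 29 and day 8 in females for 0 of 11318 (818) and 9. Of the 21 genes called at 750 mkd, 21 had the same sign in the males, where 70.5% of all genes did, and 17 in the females of day 8, where 63.7% did. With the same sign and an unadjusted p under 0.05 they were 11 and 12. The share of all genes at that p was not counted in those rats, so these counts lack a background. Of the 21, 1, Pkmyt1, was called in the males. The background of calls at 750 mkd was 0.78% in the males and 0.0174% in the females of day 8.

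Values of the mitotic and matrix genes are given side by side. The G2 and M phase list had a median log2 fold change of 1.25 in the females of day 29, 1.16 in the males and 1.58 in the females of day 8. The collagen list had 0.45, 0.19 and -0.17. Cdc20 had a log2 fold change of 1.65, 1.51 and 1.87 in the same order, while Bgn had 0.91, 0.47 and -0.09, and Sod3 0.85, 0.47 and 0.02. Pth1r had 0.89, 0.38 and -0.17. The difference of Pth1r between the days, 1.06 ± 0.20, had an adjusted p of 0.259, the smallest of the 71 named genes tested. Of these 71, edgeR called 0 for the days, with 20 at an unadjusted p under 0.05 against 7.23% of all genes, and 0 for the sexes, with 6 against 4.75%. The 71 were chosen largely for their values in the females of day 29.

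The library of 300 mkd replicate 3 held RNA that is typical of male rats. Cyp2c11, the male-specific cytochrome P450 of rat liver, was at 35.7 CPM there and at no more than 1.46 CPM in the other 19 rats. It was the 1 gene of that rat with at least 10 CPM and at least 20 times the highest level of the other 29 females of day 29. By the same rule 1 gene was found in vehicle replicate 1, Abhd3, and 1 in 750 mkd replicate 3, Nccrp1, and 0 in the remaining 27 rats. Eif2s3y, a gene of the Y chromosome, had 19 counts in 300 mkd replicate 3, at most 2 counts in the other 19 rats and 0 in 16 of them. Ddx3y had 7.44 CPM in vehicle females and 6.16 in vehicle males of day 29, so that its reads cannot check the sex.

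As a share of the mean of the vehicle males of day 29, on plain CPM, 300 mkd replicate 3 had 2.19% for Cyp2c11, 1.87% for Cyp2c13, 1.86% for LOC259244, 2.02% for Cyp3a2, 1.69% for Eif2s3y and 1.05% for Hsd3b5. Cyp2a2, another male-typical P450, was at 7.47%, but it was also high in other rats, at 27.9 CPM in replicate 4 of 300 mkd and 30.9 CPM in replicate 2 of 500 mkd. Over 25 genes with at least 20 times the female level in vehicle males, the median share was 1.87% in 300 mkd replicate 3, with quartiles of 1.20 and 2.71% and single genes from 0.86 to 13.1%, and 0.0538 to 0.287% in the other 19 rats. That rat had the highest level of the 20 rats for 20 of the 25 genes. The female-typical Cyp2c12 was at 3263 plain CPM there, within the 1851 to 5695 of the others. Markers of exocrine pancreas summed to 257 CPM and those of intestine to 1032 CPM in that rat, within the range of the other 19 rats for both. Without it edgeR called 0 genes at 300 mkd, with 655 at an unadjusted p under 0.05.

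**Figure D5:**
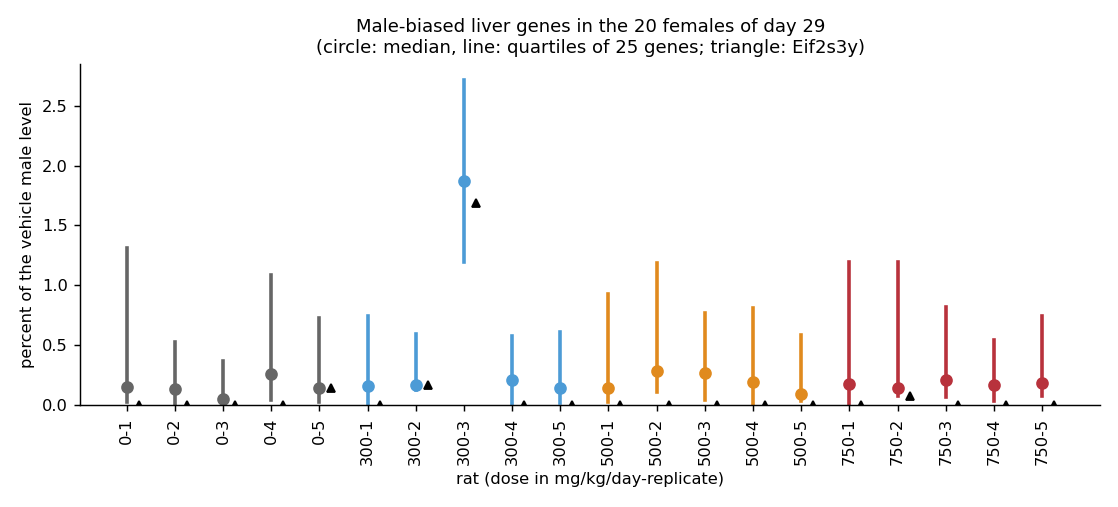
Level of 25 male-biased genes in each of the 20 rats, as percent of the mean of the vehicle males of day 29, with the median as a circle, the quartiles as a line and Eif2s3y as a triangle. The median of 300 mkd replicate 3 is 1.87% and those of the other rats are at most 0.287%.

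Vehicle replicate 1 differed from the other rats in 3 genes named after their values were seen. Aldh1a7 was at 66.3 CPM, Abhd3 at 32.5 and Fam111a at 40.6 CPM, against at most 3.12 CPM in the other 19 rats. Without that rat edgeR called 0 genes at 300 mkd, with 270 at an unadjusted p under 0.05.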

How the data were processed

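The authors trimmed the reads with Trimmomatic, aligned them with Bowtie2 to the rat genome (Rn6) and counted them on genes with HTSeq, per the labels and the methods of the study, with no versions given in the sources used here. They deposited raw counts of a stranded mRNA library for each rat, without normalization, for 17337 genes and 5 summary lines, which entered neither library sizes nor tests. The promoters are from another build, GRCr8, and no gene was placed on Rn6 here.

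Counts were fitted in R 4.3.3 with edgeR 4.0.16 (TMM, filterByExpr, quasi-likelihood), with all 30 females of day 29 in the fit for doses and 20 for the trend. Alternatives were DESeq2 1.42.0 (Wald), its size factors in edgeR, a clock score as covariate, the replicate number as a block, fewer groups, each rat left out in turn, and either no filter or a minimum of 10 counts per rat. The contrast of 750 and 500 mkd, relaxed criteria, the collagens and the male-biased genes were added after seeing the data. The procedure was tested on simulated data. List levels are means of log2 CPM with a prior count of 2.

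Members and lists were chosen with earlier results of these data known. Named genes are all called at a dose, the 10 with the smallest adjusted p each way in the trend (mean of at least 1 CPM), the 2 members of each pathway list with the smallest p at 750 mkd, those the study names for females, with Adgrg2, and those the rule on foreign RNA picks; others were chosen after their values were seen. Of the genes that this rule picks, those for cholesterol synthesis are not reported here. Same-numbered rats deviated from their group means with correlations of -0.206 to 0.289, 4 of 15 over 0.1, so the numbers do not pair the rats. The per-sample columns left out number 0.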

Additional observations from a re-analysis of the deposited data

Results flagged for a closer look

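In the groups of 5 rats, a rat whose distance to its nearest neighbour exceeded 0.71 of the range of its group (Dixon's critical value) was taken as far from the others. The distance was taken on log2(CPM + 1) for genes and on mean log2 CPM for lists, while levels of genes below are in CPM. Of 128 groups of a gene or list that were examined, 5 held such a rat. Chance gives about 1 in 20 groups, a share that 5 of 128 does not exceed. At 300 mkd replicate 2 was high for Cdc20, at 6.86 CPM with the next rat at 2.94, and for Ckap2, at 2.03 CPM with the next at 0.594. In the same group replicate 3 was high for Cyp2c11, at 35.7 CPM with the next at 1.46, and for the male-biased genes, at a median of 1.87% of the male level with the next at 0.209%. Cyp2c11 had been picked for its height in that rat, and the male-biased genes were chosen after it, so the share that chance gives does not bear on these. At 750 mkd replicate 1 was low for Pdgfra, at 16.7 CPM with the next at 24.7.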

How the results depend on the processing

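The median of all genes moved by less than 0.02 between TMM and the size factors of DESeq2. Both scalings hold that median near 0, so it does not measure the effect of scaling. With these size factors edgeR called 4 genes at 500 and 21 at 750 mkd, as many as with TMM. No fit on plain library sizes was made. With DESeq2 the number of genes called was 62 at 500 mkd, 152 at 750 mkd, 465 in the trend, 80 for 750 against 300 mkd, 1 for 750 against 500 mkd, 1 for the sexes and 9 for the days. At least 10 counts in every rat gave 7 and 9 at 500 and 750 mkd, the clock score as covariate 13 and 60, only 0 to 750 mkd in the fit 1 and 2, and only the vehicle and the tested dose 0 and 6. With no filter 750 mkd gave 12 and the trend 84. The trend gave 268 on the rank of the dose, 1 without the vehicle group and 591 over all 6 groups. A fold change of 1.4 with an adjusted p of 0.1 gave 39, 116 and 555 at 500 mkd, at 750 mkd and in the trend. The replicate number as a block, which is no true pairing here, gave 3 at 500 mkd, 27 at 750 mkd and 69 in the trend. Leaving out 1 rat gave 0 to 0 genes at 300, 0 to 36 at 500 and 0 to 269 at 750 mkd, 0 to 781 in the trend, 0 to 2 for 750 against 300 mkd, 0 to 1 for 750 against 500 mkd, 0 to 1 for the sexes and 0 to 2 for the days. It also gave medians of the S phase list of 0.0112 to 0.20 at 300 and 0.45 to 0.65 at 750 mkd, of the G2 and M phase list of 0.0126 to 0.54 and 0.96 to 1.37, of injury markers of -0.34 to -0.14 at 300 mkd, and of the clock genes of 0.0585 to 0.47 at 500 and -0.22 to 0.0165 at 750 mkd. The rule on foreign RNA found 2 genes in 300 mkd replicate 3 at 1 CPM or more and 3 at 10 times the other rats. The causes were not tested.

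Of the named genes, 1461 values of alternatives kept direction and side of the threshold, 332 lost the call, 28 gained it and 11 changed sign, all 11 at 750 mkd without 1 rat and in genes not called. Over these fits the log2 fold change ranged from -0.13 to 1.003 for Adgrg2, -0.30 to 0.0768 for Cyp17a1, -0.0742 to 0.18 for Rnd1, -0.11 to 0.15 for Tes and -0.88 to 0.24 for Car3. The highest adjusted p of the 21 genes called at 750 mkd, 0.0467, was near the threshold, with 5 rats per group.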
